A study of Homo sapiens with 6 samples.

Results

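The S100 and annexin genes were followed in PANC1 cells, a human pancreatic carcinoma line, treated with gemcitabine. The members were 33 of the 20461 genes of the deposited expression table. They were chosen by name alone: 21 genes whose current symbol starts S100A or is S100B, S100G, S100P or S100Z, and 12 whose symbol is ANXA followed by digits, with ANXA8L1 included. RNA-seq compared 2 libraries of PANC1 cells given vehicle (0.1% DMSO) with 2 libraries given 50 nM gemcitabine, a nucleoside analog that blocks DNA synthesis, both for 48 h. The study's methods call the libraries of a condition biological replicates. DNaseI-seq, which marks open chromatin, gave 1 peak list for vehicle and 1 for gemcitabine. The study ties the DNaseI-seq to the conditions of the RNA-seq. All samples came from this 1 line.

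S100 proteins are small calcium-binding proteins with a pair of EF-hand loops, which mostly work as dimers. On binding calcium most of them, though not all, expose a groove that holds target proteins. Known S100 targets include myosin, p53, the receptor RAGE and the annexins. Annexins bind acidic phospholipids of membranes when calcium rises, through a repeated core domain, and each has its own N-terminal tail. Some tails are docking sites for S100 dimers: S100A10 holds pairs of ANXA2 molecules together at the membrane, S100A11 binds ANXA1, and S100A6 binds ANXA11. Several S100 genes, S100P, S100A4, S100A6 and S100A2 among them, are well known for high expression in pancreatic carcinoma. Most S100 genes lie in a cluster on the long arm of chromosome 1, while the annexin genes are scattered.

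Library totals came to 15153593 and 15766237 for vehicle and 13194533 and 13275457 for gemcitabine, counted in fragments, the estimated reads assigned to genes. Counts scaled to the size of the library, after TMM scaling of that size, are given as CPM. By the unscaled library totals, 3 fragments in a library were worth 0.19 to 0.227 CPM. The cells carried duct keratins and vimentin, with KRT7 and VIM at 9494 fragments or more in every library. KRT19 (45 and 45 against 94 and 88 fragments) and EPCAM (80 and 57 against 48 and 45) were low. By the criteria given below, these duct and mesenchymal markers were not all level between the conditions. KRT8, KRT18 and KRT19 rose, KRT19 with a call (log2 fold change 1.13, SE 0.21, edgeR adjusted p = 0.000651), and KRT7 and CDH2 fell without one. The 2 endocrine markers INS and GCG were at 0, and the 4 acinar markers summed to 0 and 0 fragments in vehicle and 12 and 1 in gemcitabine, 11 of these from CEL in 1 library, with PRSS1 at 0 throughout.

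All 23 members with enough fragments to be tested lay higher in gemcitabine than in vehicle in the fitted difference, and none fell. A gene was tested when it had at least 10 fragments over the 4 libraries. It is written as having risen when the quasi-likelihood test of edgeR gave a Benjamini-Hochberg adjusted p under 0.05 over the 14854 tested genes. A call asked in addition for a fold over 1.5, at least 0.1 FPKM on average in either condition, and mean levels at least 1 FPKM apart. FPKM divides the fragments of a gene by transcript length and library size. By these criteria 18 of 23 rose (78.3%) in this fit, where 18.5% of all tested genes rose and 20% fell. Which members rose depends on the fit, as given at the end. The call was reached by 8 of 23 (34.8%), where 5.69% of all tested genes were called higher and 4.42% lower. In bulk RNA, a change in the number of cells of a kind and a change in RNA per cell cannot be told apart.

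Passing the filter was in part a matter of the gemcitabine libraries: 3 of the 23 (S100P, ANXA13 and S100A14) had under 10 fragments over both vehicle libraries. Of the other 20 members, 20 had a log2 fold change above 0 and 16 rose, where 48.7% and 18.5% of all genes with as many vehicle fragments did so. The conditions did not overlap for 21 of the 23 in CPM, where 35% of all tested genes separated in this direction, and S100A11 and S100A14 were the exceptions. The median log2 fold change was 0.76 over the 12 tested S100 genes, with S100P as fitted or set at a fold of 4.0. It was 0.38 over the 11 tested annexin genes, beside 0.01 over all tested genes. Of the S100 genes tested, 50.0% were called and 83.3% rose. Among the annexins 18.2% were called and 72.7% rose. Of the 10 members that rose without a call, 7 had a fold of at most 1.5 and 3 (S100A5, ANXA9 and ANXA13) an FPKM difference under 1.

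**Figure D1:**
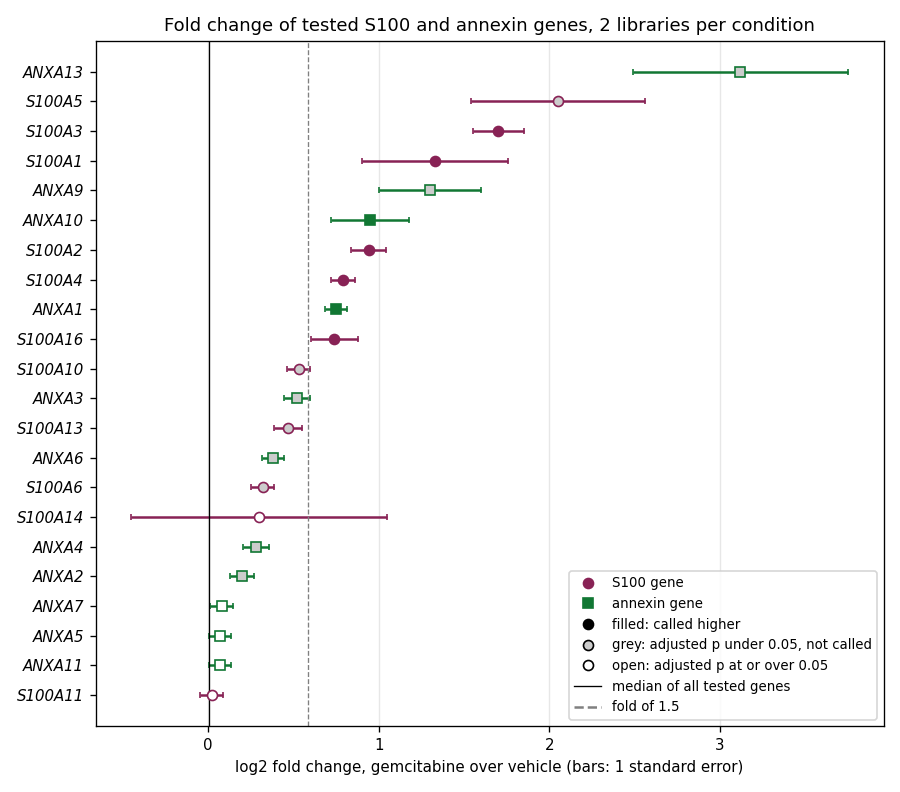
Fitted log2 fold change of gemcitabine over vehicle for 22 of the 23 tested members (horizontal axis, points with bars of 1 standard error), with S100P left out because both vehicle libraries were at 0 fragments. All points lie right of the median of all tested genes (0.01), from 0.02 for S100A11 to 3.12 for ANXA13, and filled points mark the called members.

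The DNA just upstream of the called members was read from the RefSeq windows of build GRCh38.p14, which hold the 250 bases before and 50 after each annotated start. A window existed for 30 of the 33 members. Both strands were searched for 3 motifs: TATAAA, the core of the TATA box that places the start of transcription, TGANTCA, the site of AP-1, a stress- and growth-responsive factor of the JUN and FOS families, and the consensus of NF-kB, a factor of inflammatory responses. The sequences shown are the 250 bases before the start of the 6 called members with any of these motifs, 5′ to 3′ on the strand of the gene. The capitals mark the motif. Positions are counted back from the start, whose previous base is -1.
S100A4 (chr1:153545807-153546056, minus strand): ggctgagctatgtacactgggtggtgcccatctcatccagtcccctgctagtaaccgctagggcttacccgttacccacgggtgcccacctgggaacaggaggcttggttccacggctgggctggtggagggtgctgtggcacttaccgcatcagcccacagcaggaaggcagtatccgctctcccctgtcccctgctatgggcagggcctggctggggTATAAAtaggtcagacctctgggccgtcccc
S100P (chr4:6693628-6693877, plus strand): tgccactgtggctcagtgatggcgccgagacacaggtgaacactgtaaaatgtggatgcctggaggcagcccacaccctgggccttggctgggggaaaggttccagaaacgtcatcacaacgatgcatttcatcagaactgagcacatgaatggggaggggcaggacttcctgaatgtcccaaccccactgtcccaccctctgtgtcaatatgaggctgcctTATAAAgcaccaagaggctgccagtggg
ANXA1 (chr9:73151615-73151864, plus strand): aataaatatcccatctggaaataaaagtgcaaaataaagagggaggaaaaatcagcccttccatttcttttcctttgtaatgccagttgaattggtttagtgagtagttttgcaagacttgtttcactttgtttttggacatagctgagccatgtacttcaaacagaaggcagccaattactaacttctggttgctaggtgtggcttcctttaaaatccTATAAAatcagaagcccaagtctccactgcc
ANXA10 (chr4:168092287-168092536, plus strand): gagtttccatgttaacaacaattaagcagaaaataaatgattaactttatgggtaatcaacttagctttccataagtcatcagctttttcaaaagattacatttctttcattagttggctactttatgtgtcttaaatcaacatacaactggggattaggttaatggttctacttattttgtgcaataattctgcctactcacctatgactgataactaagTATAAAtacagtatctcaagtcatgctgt
S100A2 (chr1:153565845-153566094, minus strand): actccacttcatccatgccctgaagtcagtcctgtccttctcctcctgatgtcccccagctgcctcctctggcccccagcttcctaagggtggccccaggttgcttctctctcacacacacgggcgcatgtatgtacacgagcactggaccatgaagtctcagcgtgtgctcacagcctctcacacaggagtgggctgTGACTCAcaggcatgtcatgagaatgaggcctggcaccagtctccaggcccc
S100A3 (chr1:153549259-153549508, minus strand): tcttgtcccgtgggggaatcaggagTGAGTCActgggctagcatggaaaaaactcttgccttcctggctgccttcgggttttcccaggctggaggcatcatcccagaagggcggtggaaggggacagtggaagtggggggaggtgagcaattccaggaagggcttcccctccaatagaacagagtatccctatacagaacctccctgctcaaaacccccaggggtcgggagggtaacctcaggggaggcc

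TATAAA on the transcribed strand began 40 to 20 bases before the start in 11 of the 30 members with a window, where 2.92% of all genes with a window had it there. These were ANXA1 (from -31), ANXA10 (-29), S100A4 (-31) and S100P (-28), all called, ANXA2 (-31) and S100A13 (-29), which rose without a call, and S100A7, S100A7A, S100A8, S100A9 and S100G, which were at or near 0 fragments. The letters thus stood both before members that rose and before members with hardly a read. Counted anywhere in the 300 bases and on either strand, 14 of 30 members and 14% of genes held TATAAA. The AP-1 letters were found in 5 of 30 members (9.37% of genes): S100A2 (from -52), S100A3 (-225), S100A5 (-17), ANXA2 (-127) and S100A12 (-57). S100A12 was at 0 fragments, and the other 4 rose, S100A2 and S100A3 with a call and S100A5 and ANXA2 without. S100A2 has 2 annotated starts in the table, and its letters lie before the upstream one. The NF-kB consensus was found in 4 of 30 members (13.3% of genes). ANXA4 and ANXA6 among them rose without a call, and ANXA7 and S100A14 did not pass the test. Over all tested members, 18 of 23 rose. The motif matches are letters only, and no binding was measured here.

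At the RNA level a few genes made up most of each family. On the FPKM scale, which allows genes of different length to be compared, the 21 S100 genes summed to 3190.8 and 2917.0 in the vehicle libraries and 4152.9 and 4191.6 in the gemcitabine libraries. S100A6 alone held 49.2 to 51.5% of that sum, and S100A6, S100A11 and S100A10 together 84.4 to 88.9%. The share of the 3 genes was lower in both gemcitabine libraries (84.4 and 85.5%) than in both vehicle libraries (88.9 and 88.4%). The 12 annexin genes summed to 2096.4 and 2072.5 FPKM in vehicle and 2886.5 and 2737.8 in gemcitabine. ANXA2 held 29.4 to 32.9% and ANXA5 24.0 to 27.7% of it, while the share of ANXA1 was 14.3 and 13.9% in vehicle and 19.1 and 19% in gemcitabine. FPKM ran higher in gemcitabine for genes in general, with a median difference of 0.12 over all tested genes on the log2(FPKM + 0.1) scale, so fold changes below come from the fragment counts.

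**Figure D2:**
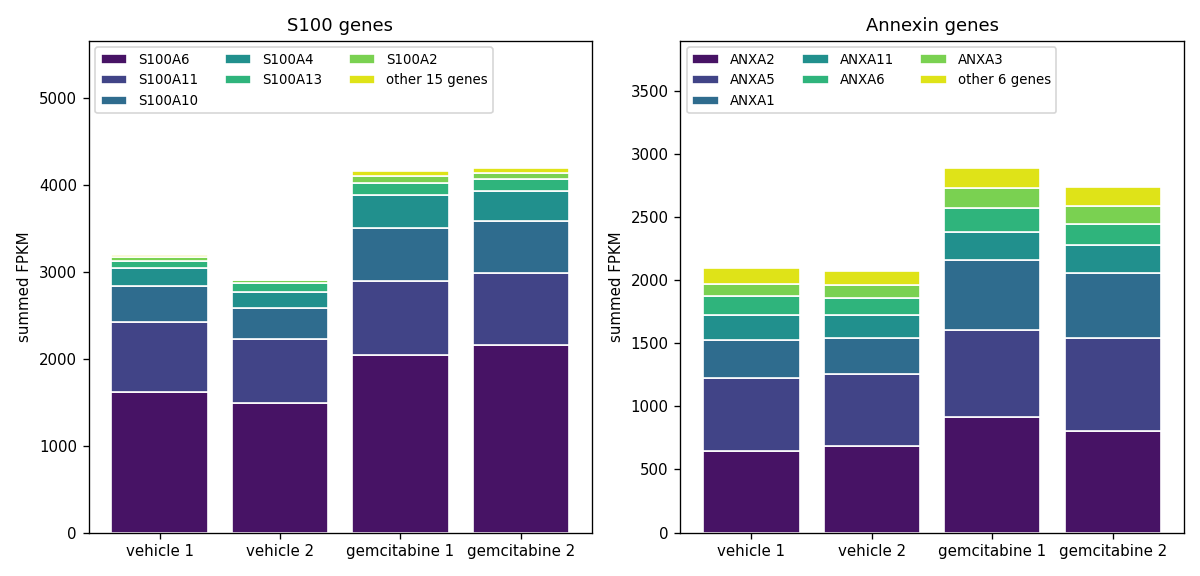
FPKM summed over the 21 S100 genes (left) and the 12 annexin genes (right) in each of the 4 libraries, stacked by the 6 highest genes of each family and the others. S100A6, at the foot of each S100 bar, holds 49.2 to 51.5% of it, and the ANXA1 segment is wider in both gemcitabine libraries (19.1 and 19%) than in vehicle (14.3 and 13.9%).

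ANXA2 and its light chain S100A10 form the cell-surface complex that binds plasminogen and tissue plasminogen activator. S100A10 (chr1:151955391-151966335 in hg19) had 2420 and 2376 fragments in vehicle and 3262 and 3142 in gemcitabine, with no overlap. It rose by a log2 fold change of 0.53 (SE 0.067, edgeR adjusted p = 2.56e-05), a fold of 1.44 that lies just under the limit for a call. ANXA2 (chr15:60639333-60695082), the most abundant annexin, had 11787 and 12472 fragments in vehicle and 13710 and 12070 in gemcitabine. Scaled to the library, this was 811 and 819 CPM against 988 and 886, so the conditions separated by less than the gap between the gemcitabine libraries. Its log2 fold change was 0.20 (SE 0.070, edgeR adjusted p = 0.035), and the adjusted p was 0.0591 without gemcitabine replicate 1, 0.261 without vehicle replicate 1 and 0.231 without vehicle replicate 2. The FPKM of S100A10 per FPKM of ANXA2 was 0.64 and 0.52 in vehicle and 0.67 and 0.74 in gemcitabine.

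ANXA1, a glucocorticoid-induced protein that inhibits phospholipase A2 and limits inflammation, was the annexin with the smallest adjusted p. ANXA1 (ENSG00000135046.9, chr9:75766781-75785309) had 6240 and 6471 fragments in vehicle and 10182 and 9542 in gemcitabine. Every gemcitabine library stood well above both vehicle libraries. The log2 fold change was 0.75 (SE 0.066, edgeR adjusted p = 1.16e-06), mean FPKM was 294 in vehicle and 536 in gemcitabine, and the call held in each of the 4 fits that left out 1 library (0.72 to 0.78). S100A11, its S100 partner, had 5061 and 4974 fragments in vehicle and 4773 and 4610 in gemcitabine. In CPM the conditions overlapped (348 and 327 against 344 and 338), and the log2 fold change was 0.02 (SE 0.066, edgeR adjusted p = 0.871), or -0.02 without vehicle replicate 2. With ANXA1 higher and S100A11 level within error, the FPKM of S100A11 per FPKM of ANXA1 was 2.69 and 2.55 in vehicle and 1.54 and 1.6 in gemcitabine.

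S100A6, or calcyclin, is a partner of ANXA11 and of the ubiquitin-ligase adaptor CACYBP, and was the most abundant S100 transcript. S100A6 (chr1:153507075-153508720) had 12413 and 12353 fragments in vehicle and 13999 and 14590 in gemcitabine. Mean FPKM was 1553 and 2100. The gene rose by 0.32 on the log2 scale (SE 0.068, edgeR adjusted p = 0.00176), a fold of 1.25, but the adjusted p was 0.097 without vehicle replicate 2. ANXA11, a component of RNA granules carried on lysosomes, had 2742 and 2727 fragments in vehicle and 2674 and 2646 in gemcitabine. Its log2 fold change of 0.07 (SE 0.066) did not pass the test (edgeR adjusted p = 0.403).

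**Figure D3:**
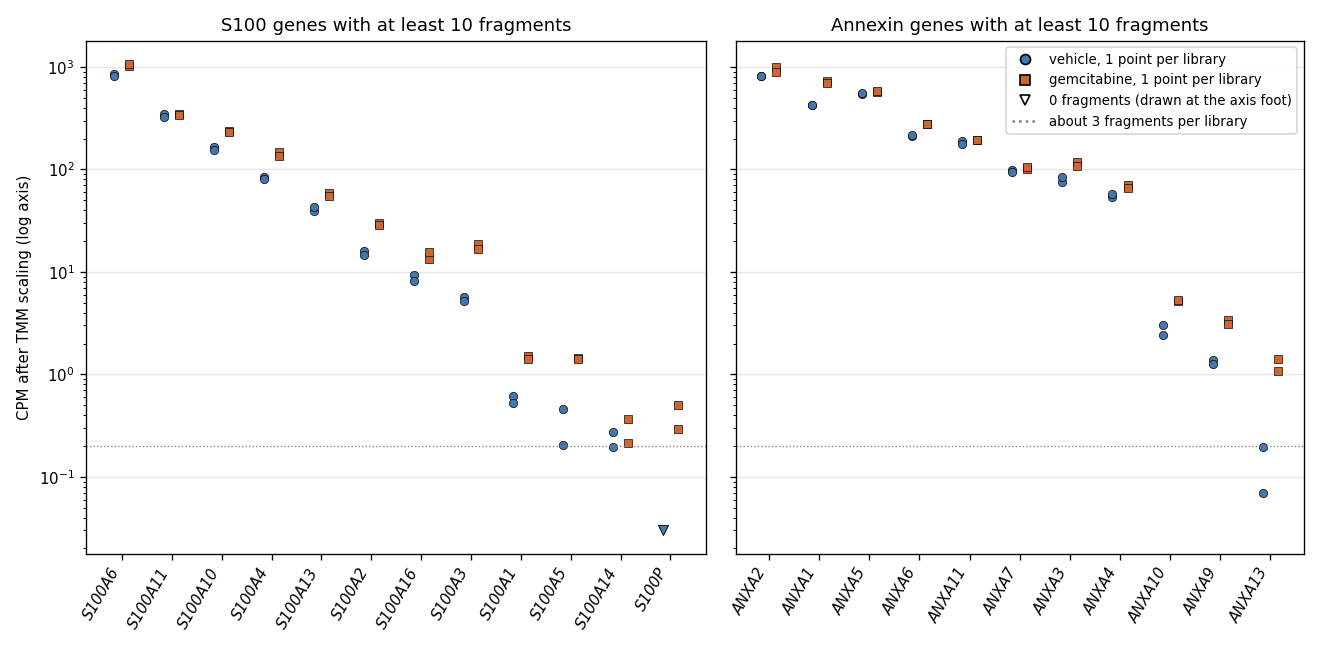
CPM after TMM scaling (log axis) of the 12 S100 genes (left) and 11 annexin genes (right) with at least 10 fragments, 1 point per library, circles for vehicle and squares for gemcitabine. Levels span S100A6 at 811 to 1070 CPM down to S100P, where both vehicle libraries are at 0 fragments and are drawn at the foot of the axis. The squares lie above the circles for all genes but S100A11 and S100A14.

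Of the 6 called S100 genes, 5 lay in 1 block of chromosome 1, which also held 9 of the 12 tested S100 genes. The S100 genes of this chromosome fall into 3 blocks (hg19). S100A10 and S100A11 lie in a block of 65.0 kb, and both were expressed without a call. A block of 102.8 kb from S100A9 to S100A7 holds 6 genes, none of which passed the filter, with at most 2 fragments in a library. The block of 97.4 kb from S100A6 to S100A1 (chr1:153507075-153604515) holds 9 genes, all of them tested, 8 of which rose and 5 of which were called. Abundant and nearly silent S100 genes thus sat in neighbouring stretches of the same chromosome arm.

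S100A4, or metastasin, binds non-muscle myosin and is linked to cell motility and mesenchymal cells. S100A4 (ENSG00000196154.7, chr1:153516089-153522612) had 1224 and 1238 fragments in vehicle and 2065 and 1858 in gemcitabine. It rose by a log2 fold change of 0.79 (SE 0.070, edgeR adjusted p = 1.34e-06), with mean FPKM of 197 in vehicle and 362 in gemcitabine. S100A3, a cysteine-rich protein of the hair cuticle, lies within the annotated bounds of S100A4 (ENSG00000188015.5, chr1:153519805-153521734). S100A3 had 82.2 and 79.2 fragments in vehicle and 259.5 and 225 in gemcitabine, and its log2 fold change of 1.70 (SE 0.15, edgeR adjusted p = 9.02e-07) was the highest among members with over 50 fragments in each library. Both calls held in every fit that left out 1 library, between 0.72 and 0.85 for S100A4 and 1.61 and 1.79 for S100A3.

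The values of S100A3 and S100A4 are not independent. The gene bounds overlap on the same strand, and these were the 2 members whose fragment values were not whole numbers. Their sum was within 0.005 of a whole number in each library (1306, 1317, 2325 and 2083), so some reads had been shared out between the pair. S100A3 received 6.3 and 6.0% of the joint fragments in vehicle and 11.2 and 10.8% in gemcitabine. With the pair summed as 1 gene, an alternative chosen after seeing the data, the log2 fold change was 0.86 (SE 0.071, edgeR adjusted p = 6.28e-07). The annotation used here gives the pair no shared exon bases, and how far the fold of S100A3 alone rests on the split was not tested.

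S100A2, a nuclear S100 protein that binds p53 and is a known p53 target, was called next to them. S100A2 (ENSG00000196754.5, chr1:153533584-153540366) had 232 and 223 fragments in vehicle and 414 and 393 in gemcitabine. Its fold was 1.92, with a log2 fold change of 0.94 (SE 0.10, edgeR adjusted p = 7.03e-06) and mean FPKM of 38.4 and 75.8. S100A16, a widely expressed member of the family, had 135 and 123 fragments in vehicle and 187 and 211 in gemcitabine (ENSG00000188643.5, chr1:153579362-153585621). S100A16 rose by 0.74 (SE 0.14, edgeR adjusted p = 0.000903), from a mean FPKM of 8.69 to 15.6. That call was lost without vehicle replicate 2, at a log2 fold change of 0.65 and an adjusted p of 0.0508.

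S100A13, which takes part in the non-classical release of FGF1, and S100A1, the calcium sensor of heart and skeletal muscle, overlap head to head. S100A13 (chr1:153591263-153603836) had 566 and 656 fragments in vehicle and 814 and 753 in gemcitabine. Its log2 fold change was 0.47 (SE 0.082, edgeR adjusted p = 0.000398). S100A1 (ENSG00000160678.7, chr1:153600402-153604515) had only 9 and 8 fragments in vehicle and 21 and 19 in gemcitabine. Its ratio of summed CPM was 2.5, with an exact 95% counting interval of 1.4 to 4.8 that covers counting error only, and its log2 fold change was 1.33 (SE 0.43, edgeR adjusted p = 0.0248). The S100A1 call did not hold in DESeq2 (adjusted p = 0.174), nor without vehicle replicate 1 (log2 fold change 1.46, adjusted p = 0.0844), vehicle replicate 2 (1.23, 0.126) or gemcitabine replicate 1 (1.28, 0.0656). The genes lie on opposite strands and share 235 exon bases, and the library kit does not mark strand, so reads of S100A1 and S100A13 in the shared bases cannot be told apart.

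S100A5, a high-affinity calcium binder of olfactory neurons, stood at the detection limit in vehicle. It had 3 and 7 fragments there and 20 and 19 in gemcitabine. The ratio of summed CPM was 4.2 (exact 95% counting interval 2.1 to 9.5), and the log2 fold change was 2.05 (SE 0.51, edgeR adjusted p = 0.00528), with 1.61 and an adjusted p of 0.0681 without vehicle replicate 1 and 2.74 without vehicle replicate 2. Mean FPKM remained below 1 in both conditions (0.16 and 0.643), so the gene was not called. S100A14, an epithelial S100 protein, had 4, 3, 3 and 5 fragments and gave no readable difference (log2 fold change 0.30, SE 0.75, and -0.12 without gemcitabine replicate 2).

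**Figure D4:**
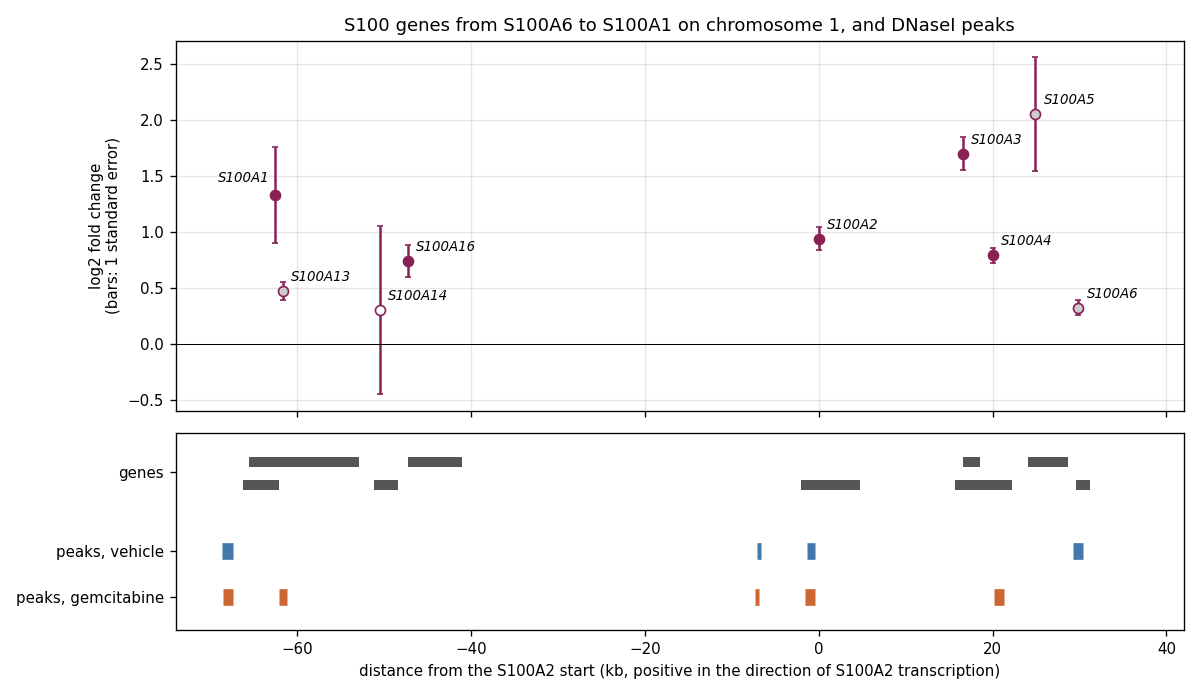
The 9 S100 genes from S100A6 to S100A1 by distance of their start from that of S100A2 (kb), with log2 fold changes and bars of 1 standard error above (filled for called, grey for an adjusted p under 0.05 without a call, open otherwise), and gene extents and DNaseI peaks of each condition below. All 9 fold changes are above 0, and peaks near the starts of S100A4 and of S100A1 and S100A13 appear in the gemcitabine list alone, that at S100A6 in the vehicle list alone.

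The calgranulins S100A8, S100A9 and S100A12, secreted by neutrophils and monocytes as inflammatory signals, were not measurably expressed. S100A8 and S100A12 were listed at 0 in all 4 libraries, as were S100A7A and S100A7L2, the latter annotated as a pseudogene in the later annotation used for positions. S100A9 had 2, 0, 0 and 2 fragments, with no detectable difference at this depth. S100A7, or psoriasin, of inflamed skin, had 1 fragment in 1 vehicle library. A listing at 0 leaves room for up to 3 fragments, at most 0.227 CPM per library by the unscaled totals. The 5 myeloid markers summed to 7 and 6 fragments in vehicle and 20 and 7 in gemcitabine, with LYZ at 0 in every library.

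S100P, a secreted ligand of RAGE on chromosome 4 (ENSG00000163993.6, chr4:6695605-6698897), was seen in gemcitabine only at the level of single reads. It had 0 and 0 fragments in vehicle and 7 and 4 in gemcitabine. Set against 3 fragments over both vehicle libraries, the 11 gemcitabine fragments were 4.0-fold higher. That figure takes the 11 fragments as exact, so it is no full lower bound. The gene met the call (edgeR adjusted p = 0.00876), with a mean FPKM of 2.06 in gemcitabine, but it could pass the filter only through those 2 libraries. Without either gemcitabine library fewer than 10 fragments were left and it was not tested, and DESeq2 gave no adjusted p. The S100 genes of other chromosomes were silent or nearly so: S100B, of astrocytes and melanocytes, had 0, 0, 2 and 0 fragments, S100G, of intestinal calcium uptake, 0, 1, 1 and 1, and S100Z 3, 2, 3 and 1.

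ANXA5, ANXA6, ANXA3, ANXA4 and ANXA7 carried most of the annexin RNA beside ANXA1, ANXA2 and ANXA11. ANXA5, whose protein coats exposed phosphatidylserine and is used to stain dying cells, had 7958 and 8484 fragments in vehicle and 7978 and 7962 in gemcitabine. In CPM this was 548 and 557 against 575 and 585, a log2 fold change of 0.07 (SE 0.064) that did not pass the test (edgeR adjusted p = 0.421). ANXA6, the annexin with a duplicated core, which acts in membrane repair and cholesterol traffic, had 3055 and 3323 fragments in vehicle and 3848 and 3803 in gemcitabine. It rose by 0.38 (SE 0.065, edgeR adjusted p = 0.000372). ANXA7, named synexin for its joining of secretory granules, had 1446 and 1451 against 1394 and 1445 fragments, a log2 fold change of 0.08 that did not pass the test.

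ANXA3 had 1088 and 1281 fragments in vehicle and 1644 and 1489 in gemcitabine. This was a fold of 1.43, with a log2 fold change of 0.52 (SE 0.076, edgeR adjusted p = 9.64e-05), just short of a call, and without vehicle replicate 2 it was called at 0.61. ANXA4, an annexin of secretory epithelia, had 786 and 875 fragments in vehicle and 970 and 892 in gemcitabine. In CPM its libraries separated (54.1 and 57.5 against 69.9 and 65.5), and it rose by 0.28 (SE 0.075, edgeR adjusted p = 0.0088). The adjusted p of ANXA4 was 0.145 without vehicle replicate 1 and 0.0668 without vehicle replicate 2. ANXA4 overlaps AAK1 on the opposite strand, without shared exon bases.

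The rarer annexins had the larger folds and the larger errors. ANXA10, which lacks most calcium-binding sites of the family and is known from gastric and urothelial epithelium, had 35 and 46 fragments in vehicle and 72 and 73 in gemcitabine (ENSG00000109511.6, chr4:169013688-169108887). It was called, with a log2 fold change of 0.95 (SE 0.23, edgeR adjusted p = 0.00507) and mean FPKM of 1.86 and 3.9. Without vehicle replicate 1 the ANXA10 call was lost (0.81, adjusted p = 0.0929). ANXA9 had 20 and 19 fragments in vehicle and 47 and 42 in gemcitabine. Its log2 fold change was 1.30 (SE 0.30, edgeR adjusted p = 0.00356), with an adjusted p of 0.0594 without vehicle replicate 2, and mean FPKM was 0.432 and 1.08.

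ANXA13, the intestinal annexin, had 1 and 3 fragments in vehicle and 15 and 19 in gemcitabine. Its ratio of summed CPM of 9.2 carried an exact 95% counting interval of 3.3 to 35.7, and its fitted log2 fold change was 3.12 (SE 0.63, edgeR adjusted p = 0.00126), or 2.60 without vehicle replicate 1 and 4.01 without vehicle replicate 2. Mean FPKM was 0.306 in gemcitabine. ANXA8L1 had 1, 1, 1 and 2 fragments and was not tested. Its near-identical copy ANXA8L2, which is no member by name, had 19, 20, 14 and 19, and how reads were divided between such copies cannot be told from the table.

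The share of members with open chromatin at a start was below that of all genes in vehicle and close to it in gemcitabine. DNaseI peaks were called in each condition on its own, 9606 in vehicle and 10695 in gemcitabine, and a member was counted when a peak reached within 1000 bases of one of its annotated starts in hg19. In vehicle this held for 4 of 33 members (S100A2, S100A6, S100A11 and ANXA2), where 21.9% of all annotated genes of the table had such a peak. In gemcitabine it held for 8 of 33 (S100A1, S100A2, S100A4, S100A10, S100A11, S100A13, ANXA4 and ANXA6), against 25.3%. A peak in both lists was found for 2 members (16.6% of genes), in gemcitabine alone for 6 (8.72%), in vehicle alone for 2 (5.32%) and in neither for 23. Every member with a peak was among the 23 tested on RNA, and tested genes had a peak more often: 29.1% in vehicle, 33.6% in gemcitabine, 22.1% in both, 11.5% in gemcitabine alone and 6.98% in vehicle alone. With 1 library a condition there is no replicate check of any of these differences.

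The peak scores show how close many of these were to the peak caller's limit, taken to be a score of 50. S100A2 had a peak across a start in both lists, chr1:153538728-153539692 with a score of 55.4 in vehicle and chr1:153538713-153539881 with 84.9 in gemcitabine. The start of the main S100A2 transcript, chr1:153538320, lay outside both peaks. The gemcitabine-only peak over an annotated S100A4 start (chr1:153516952-153518191) scored 50.7, and those at ANXA6 and ANXA4 scored 50.7 and 51.8. The start of the main S100A4 transcript, chr1:153518282, lay just outside that peak. S100A1 and S100A13 shared 1 gemcitabine peak (chr1:153599487-153600375) with a score of 71.2, so they are not separate instances. The S100A10 peak (chr1:151964631-151965727) scored 68.2 and was also listed in gemcitabine alone. It covered an annotated start, while the start of the main S100A10 transcript, chr1:151966335, lay outside it. S100A11, whose RNA did not pass the test, had the highest scores, 113.6 in vehicle and 94.4 in gemcitabine. Its peaks (chr1:152019934-152021394 in vehicle and chr1:152020033-152021442 in gemcitabine) covered an alternative start, away from that of the main transcript at chr1:152009480. The ANXA2 vehicle peak (chr15:60666443-60667501) likewise lay away from the main start at chr15:60690185. S100A6, which rose, had a peak in vehicle alone (58.4). ANXA1, ANXA10, S100A3, S100A16 and S100P, all called on RNA, had no peak within 1000 bases in either list, and the silent block from S100A9 to S100A7 held no peak at all.

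Genes that work with these proteins were counted in the same fit, in which 18.5% of all tested genes rose, 20% fell and 5.69% were called higher. Of 17 binding partners, 15 were tested, 1 rose and was called (KCNK3, a potassium channel whose trafficking S100A10 helps, log2 fold change 1.23, SE 0.15, edgeR adjusted p = 2.1e-05) and 3 fell: the S100A10 and ANXA2 scaffold AHNAK (-0.24, 0.0105), the S100A4 target MYH9 (-0.27, 0.00557) and the S100A6 partner CACYBP (-0.32, 0.00158), given as log2 fold change and adjusted p. The median over the partners was -0.02. None of the 3 falls reached the fold for a call, and 3 of 15 is about the share of all tested genes that fell.

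Plasminogen activation at the cell surface, the reaction that the ANXA2 and S100A10 complex promotes, had 5 of 7 genes tested, of which 3 rose and 2 were called. PLAU, urokinase, had 5 and 4 fragments in vehicle and 21 and 31 in gemcitabine (log2 fold change 2.61, SE 0.49, edgeR adjusted p = 0.000731). PLAT, tissue plasminogen activator, had 106 and 120 against 221 and 244 (1.16, SE 0.14, edgeR adjusted p = 1.44e-05). PLAUR, the urokinase receptor, rose by 0.44 without a call (edgeR adjusted p = 0.000192). The substrate PLG itself had at most 5 fragments in a library.

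Among 10 receptors of S100 and annexin proteins, 7 were tested, 2 rose and 1 was called. TLR4, a receptor of S100A8 and S100A9, had 358 and 362 fragments in vehicle and 646 and 614 in gemcitabine (log2 fold change 0.92, SE 0.086, edgeR adjusted p = 1.97e-06). AGER, which encodes RAGE, the receptor of several S100 proteins, rose by 0.89 from low counts (19 and 31 against 53.1 and 33, SE 0.33, edgeR adjusted p = 0.046) without a call. The ANXA1 receptors FPR1, FPR2 and FPR3 had at most 3 fragments in a library. Of 11 membrane repair genes, 10 were tested, 2 rose (EHD1 by 0.50 and CAPN1 by 0.18) and none was called. These 2 of 10 lie near the 18.5% of all tested genes that rose, and the 2 of 7 receptors stand beside the same share, with no test of a difference. The calmodulins, calcium sensors built from the same EF-hand loops, had 4 of 7 genes tested, 0 that rose and 1 that fell (CALML4, -0.53), with a median of 0.04 that lies beside 0.76 for the S100 genes. The fused-type S100 genes of the same chromosome arm, which build the skin barrier, had 1 of 7 tested (FLG, log2 fold change 0.92, SE 0.68) and none that passed.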

How the data were processed

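The expression table was made by the authors, who mapped single-end reads with TopHat2 2.0.8 (hg19) and ran Cuffdiff 2.0.2 on the protein-coding genes of Gencode V15 with at least 10 reads. It holds, as deposited, estimated counts (fragments per gene and library, 89.5% of them whole within 0.001) and FPKM. A further 2 columns of scaled values were not used. Peaks were called by the authors with MACS at a p-value of 1e-05. The deposited score was taken to be -10 times log10 of the p-value of a peak. The lowest score among the peaks nearest to the members was 50.4.

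Members were found by Ensembl ID and current symbol. The members, gene lists and tests were chosen with earlier results of these data known. Symbols matched 19619 of 20461 IDs. Cuffdiff marks 275 genes, no member among them, as failed in some library, and these were kept. The index that names libraries in the table matches no replicate number in the sample titles, so replicate 1 and 2 are names only.

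Counts were rounded and fitted with edgeR 4.0.16 (R 4.3.3, TMM, quasi-likelihood, no covariate, genes with at least 10 fragments over 4 libraries), and p-values were adjusted by Benjamini-Hochberg over 14854 genes. Alternatives used DESeq2 1.42.0 and limma 3.58.1 on log2(FPKM + 1) or log2(FPKM + 0.1). The test was checked on simulated counts. Positions, starts and overlaps came from GENCODE version 44 carried to GRCh37, later than the authors' annotation, and promoter letters from RefSeq on GRCh38.p14. No coordinate was converted between builds. Counting intervals are exact at 95%. Fold changes and adjusted p are given for members that were called, that rose by over 1.2-fold, or that were among the 5 highest of a family by FPKM. Other members are given by their fragments, with 1 value of the fit where tested and the leave-one-out range of low genes. Of the lists other than the cell markers, called genes, genes that rose or fell and partners of a described member are named, the others counted. FLG was named after its value was seen. 1 gene of the lists is not reported here.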

Additional observations from a re-analysis of the deposited data

How the results depend on the processing

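The 8 members called higher became 18 by adjusted p alone and 6 to 7 when 1 library was left out, and no member was called lower in any of these fits (0 to 0). The partner lists had 4 genes called, against 1 under limma on log2(FPKM + 1), 2 on log2(FPKM + 0.1), 12 by adjusted p alone and 4 to 5 with 1 library left out. The S100 median of 0.76 was 0.87 with library totals and 0.64 to 0.83 with 1 library left out. The annexin median of 0.38 was 0.49 with library totals, 0.45 with no filter, 0.46 with limma on log2(FPKM + 0.1) and 0.36 to 0.41 with 1 library left out. Library totals moved the median of all genes by 0.11 and that of the members by 0.11. Members near a DNaseI peak in vehicle numbered 8 within 5000 bases and 1 at a score of at least 100, against 4, and in gemcitabine 0 at that score, against 8. The causes were not tested.

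ANXA1, S100A2, S100A3 and S100A4 were called under every alternative fit. S100A1 was lost in 6 of these fits, ANXA10 in 3 and S100A16 in 2, while S100A10 gained a call in 4 other fits and ANXA3 in 5. In the main fit, a limit of 0.01 on the adjusted p also removed S100A1. S100P kept its call where it was tested, but was left out by edgeR's own filter and without either gemcitabine library, and had no adjusted p in DESeq2. With S100A3 and S100A4 summed, an alternative chosen after seeing the data, 7 were called. No paired analysis was possible because the index that names libraries in the table matches no replicate number in the sample titles. With 2 libraries a condition, members under about 50 fragments have wide errors, and FPKM tests with 2 against 2 sat near the threshold (ANXA1 adjusted p = 0.0485 by limma on log2(FPKM + 1)). In that limma fit ANXA2, ANXA4, ANXA6, ANXA9, ANXA10, ANXA13, S100A1, S100A6, S100A10 and S100A16 did not pass (adjusted p 0.0514 to 0.162). It also called fewer of all genes higher, 300 against 845. Apart from S100A11 and S100A14, the tested members kept a log2 fold change above 0 in every alternative fit.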
